A study of Mus musculus with 2 samples.

Results

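The growth hormone and insulin-like growth factor (IGF) axis of the liver was followed through 10 genes in a single-cell RNA-seq series of mouse hepatocytes. The 10 genes were taken by name from the 31053 genes of the count table, with no threshold on their values. The choice was made with earlier results of these data known. They are the growth hormone receptor Ghr, the receptor's feedback inhibitor Socs2, the ligand Igf1, the carrier subunit Igfals and the binding proteins Igfbp1, Igfbp2, Igfbp3, Igfbp4, Igfbp5 and Igfbp7. All 10 were detected in both libraries, and all 10 reached the minimum of 10 UMIs over both libraries that was set for a ratio to be counted.

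Growth hormone is released by the pituitary and binds its receptor on hepatocytes, where the kinase JAK2 and the transcription factor STAT5B carry the signal to the genome. Igf1 is a main target of this signal, and the liver is the chief source of the IGF1 that circulates. In plasma most IGF1 travels in a complex of the ligand, a binding protein such as IGFBP3 and the acid-labile subunit encoded by Igfals, which lengthens its life in blood. IGFBP1 and IGFBP2 bind IGFs outside this complex and respond to insulin and to fasting, and IGFBP7 is a distant relative with low affinity for IGFs that is found in vessel walls. The temporal pattern of growth hormone release differs between male and female mice and sets the sex bias of many liver genes.

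The control library came from 1 C57BL/6 animal of the genotype LaptTA;WT and the tetYAP 4W library from 1 C57BL/6 animal of the genotype LaptTA; tetYAP. Both animals carried the LaptTA transactivator, which a liver promoter drives in hepatocytes and which doxycycline in the food keeps inactive. In the tetYAP animal it turned on an activated mutant of YAP, the effector of the Hippo pathway, for 4 weeks, and the libraries were made from cells released by perfusion of the liver. With 1 library per group there was no test between the groups, and every interval below is a 95% interval that covers counting error only.

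Of the 4513 barcodes, 2989 were control, with 9509885 UMIs in all and 3117 at the median barcode, and 1524 were tetYAP 4W, with 6777210 UMIs and 4150 at the median. The libraries shared 0 barcodes. These are the barcodes left after the study down-sampled each condition to the same number of barcodes and removed barcodes above a UMI limit. The number removed at each step is not stated. From equal starting numbers, the limit would have removed more tetYAP 4W barcodes, those of highest depth, than control barcodes. Xist, the RNA that coats the inactive X chromosome of females, had 3 control UMIs and 4859 tetYAP 4W UMIs, while 4 genes of the Y chromosome (Ddx3y, Eif2s3y, Kdm5d and Uty) had 716 and 0. Sex and genotype therefore cannot be told apart in any comparison between the libraries. Yap1 itself lay at 16.3 CPM in control and 18.9 CPM in tetYAP 4W barcodes (UMIs scaled to a total of 1000000), a log2 ratio of 0.21 (-0.14 to 0.56), and the sources used here do not say whether the transgene transcript is counted under Yap1.

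Barcodes were given a class by UMIs of marker genes. A barcode entered a class such as endothelial or macrophage with at least 10 UMIs from at least 3 of that class's markers, and at least 3-fold more than any other class that reached this minimum. The hepatocyte class is what had fewer than 10 UMIs of every other marker list. It held 2864 control barcodes (95.8%) and 786 tetYAP 4W barcodes (51.6%). All 12 hepatocyte markers were detected in it, with a median of 393 UMIs per control barcode and 371 per tetYAP 4W barcode. The remaining barcodes carried nearly as many hepatocyte marker UMIs, with medians of 384 (control) and 295 (tetYAP 4W), so the hepatocyte class is set apart by what it lacks and RNA of hepatocytes is present in barcodes of every class. In the hepatocyte class mitochondrial genes took a median of 28.2% of a control barcode's UMIs and 56.0% of a tetYAP 4W barcode's UMIs, endothelial markers averaged 0.378 and 1.20 UMIs, macrophage markers 0.0929 and 3.10 UMIs and stellate markers 0.241 and 0.597 UMIs. Their part in the ratios below was not tested. In the hepatocyte class the ratio of each of the 10 genes is also given per hepatocyte marker UMI, a scale that mitochondrial RNA does not enter.

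In the GRCm38.p6 assembly, 4 of the binding protein genes form neighbouring pairs. Igfbp1 (chromosome 11, 7197787 to 7202546) ends 3539 bases from Igfbp3 (7206086 to 7215498), and Igfbp2 (chromosome 1, 72824480 to 72852474) lies 5590 bases from Igfbp5 (72858065 to 72874865). Igfbp4 lies elsewhere on chromosome 11 (99040005 to 99052655) and Igfbp7 on chromosome 5 (77349240 to 77408045). Ghr is on chromosome 15 (3317755 to 3583352), Igf1 (87858265 to 87937047) and Socs2 (95383903 to 95417321) are both on chromosome 10, and Igfals is on chromosome 17 (24877844 to 24882011). All 10 are protein-coding genes.

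The 250 bases before the start were read from RefSeq for 9 of the 10 genes, in 13 windows because several genes have more than 1 start. Socs2 had no entry. The windows were searched on both strands for TTCNNNGAA, the core that STAT5 binds, for GGAATG and its reverse complement CATTCC, the core that the YAP partner TEAD binds, and for TGTTTTG and its reverse complement CAAAACA, a core of insulin-responsive FOXO elements. None of the 3 motifs overlaps another in these windows. The STAT5 core was found in the windows of 1 gene, Igfals, against 7.02% of all 32851 promoter windows. The FOXO core was found in 1 gene, Igfbp1, against 5.56% of all windows, and the TEAD core in 2 genes, Igfals and Igfbp5, against 12.6%. The matches are counted by gene and the shares by window, so they are not like for like. The windows of Igfbp1 and of the upstream start of Igfals are shown because they hold these matches, which stand in capitals. The Igfbp1 window spans chr11:7197537-7197786 on the plus strand and holds CAAAACA at positions -108 to -102, counted back from the start. The Igfals window spans chr17:24877594-24877843 on the plus strand and holds TTCTCAGAA at -236 to -228 and CATTCC at -39 to -34.
Igfbp1: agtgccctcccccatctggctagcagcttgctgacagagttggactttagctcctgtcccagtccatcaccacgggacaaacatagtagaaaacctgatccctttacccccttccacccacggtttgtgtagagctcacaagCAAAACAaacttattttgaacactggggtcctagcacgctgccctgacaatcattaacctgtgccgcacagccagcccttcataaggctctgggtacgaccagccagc
Igfals: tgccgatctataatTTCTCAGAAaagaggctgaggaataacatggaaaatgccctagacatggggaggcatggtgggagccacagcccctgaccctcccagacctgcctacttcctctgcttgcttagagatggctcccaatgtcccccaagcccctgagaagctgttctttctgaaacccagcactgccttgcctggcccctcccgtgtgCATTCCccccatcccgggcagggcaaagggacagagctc
A further STAT5 core, TTCCTAGAA, lies at -58 to -50 from the second start of Igfals. These matches are letters in a window and were not tested for binding.

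Ghr, which receives the growth hormone signal, had the lowest CPM ratio of the 10 genes in the hepatocyte class. It had 2837 UMIs in the control class, or 316 CPM (305 to 328), and 416 UMIs in the tetYAP 4W class, or 125 CPM (113 to 138). CPM are scaled to the total UMIs of the same barcodes. The level was 2.53-fold lower in the tetYAP 4W library, a log2 ratio of -1.34 (-1.49 to -1.19). Per 1000 hepatocyte marker UMIs, Ghr was at 2.54 and 1.35, a log2 ratio of -0.91 (-1.06 to -0.76), so Ghr was lower on this scale too and by less than 2-fold. Its place below Igfbp2 did not hold in every set of barcodes, since Ghr was at -0.67 and Igfbp2 at -0.72 without barcodes above 30% mitochondrial UMIs. A Ghr UMI was seen in 61.3% of control hepatocyte-class barcodes and in 38.8% of tetYAP 4W ones. With every barcode thinned to 2000 UMIs the shares were 47.0% and 21.0%, from 2775 and 786 barcodes.

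Within the tetYAP 4W hepatocyte class, Ghr was not spread evenly. Barcodes in which the nuclear RNAs Malat1 and Neat1 made up at least 0.2% of UMIs numbered 139 and had 0.791 Ghr UMIs per barcode (0.650 to 0.954). The 647 barcodes below that share had 0.473 (0.421 to 0.529), at a median mitochondrial share of 58.0% against 31.3% in the first group. Control barcodes had 1.17 (0.968 to 1.41) in 99 barcodes rich in these RNAs and 0.984 (0.947 to 1.02) in the other 2765, with intervals that overlap. Ghr was thus lower in the tetYAP 4W library than in the control in both kinds of barcode. When barcodes were ranked by mitochondrial share into 4 equal bins, the tetYAP 4W bin with the lowest share (median 26.6%) had 0.706 Ghr UMIs per barcode (0.593 to 0.833) and the other 3 bins 0.437 to 0.505, while the control bins lay between 0.951 and 1.02.

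Socs2, a target of STAT5 whose product damps the growth hormone receptor, was sparse in hepatocyte-class barcodes. Its 131 control UMIs gave 14.6 CPM (12.2 to 17.3) and its 59 tetYAP 4W UMIs 17.7 CPM (13.5 to 22.9). The log2 ratio was 0.28 (-0.19 to 0.73), an interval that holds 0. Per 1000 hepatocyte marker UMIs it was 0.71 (0.24 to 1.16). The ratio was larger in some of the barcodes, at 1.45 without those above 30% mitochondrial UMIs and 1.48 in nuclear RNA-rich barcodes. The median log2 ratio of all genes was also higher in these sets, at 0.97 and 0.25 against -0.05 in the whole class. The 59 UMIs of the tetYAP 4W class lay in 52 barcodes. The 139 nuclear RNA-rich barcodes carried 28 of these UMIs, at 0.201 per barcode (0.134 to 0.291), against 0.0479 (0.0326 to 0.0680) in the other 647. In the control the nuclear RNA-rich barcodes had 6 Socs2 UMIs in 99 barcodes, or 0.0606 per barcode (0.0222 to 0.132), and the rest 0.0452 (0.0376 to 0.0539).

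Igf1, the ligand, had the most UMIs of the 10 genes. It had 6491 UMIs in the control hepatocyte class, or 724 CPM (707 to 742), and 1599 in the tetYAP 4W class, or 481 CPM (458 to 505). The log2 ratio of -0.59 (-0.67 to -0.51) depended on the scale. Per 1000 hepatocyte marker UMIs Igf1 stood at 5.82 and 5.20, a log2 ratio of -0.16 (-0.24 to -0.08), and as a share of non-mitochondrial UMIs the ratio was -0.00 (-0.08 to 0.08). In the hepatocyte class Igf1 thus showed no difference once mitochondrial UMIs were left out of the total. On that scale the median log2 ratio of all genes was 0.53, against -0.05 in CPM. Over all barcodes the Igf1 ratio on that scale was -0.54 (-0.60 to -0.47). The ratio of Ghr lay below that of Igf1 under all 3 scalings, with intervals that did not overlap. Igf1 was seen in 88.6% of control and 83.1% of tetYAP 4W hepatocyte-class barcodes, with a highest value of 12 and 16 UMIs in 1 barcode.

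Igfals, the subunit that holds IGF1 in its long-lived plasma complex, did not follow Ghr. Its 814 UMIs in the control hepatocyte class gave 90.8 CPM (84.7 to 97.3) and its 356 UMIs in the tetYAP 4W class 107 CPM (96.2 to 119). The log2 ratio was 0.24 (0.05 to 0.42). Per 1000 hepatocyte marker UMIs it was 0.67 (0.48 to 0.85), from 0.730 to 1.16. Within the tetYAP 4W class Igfals had the opposite layout to Ghr, with 0.281 UMIs per barcode (0.20 to 0.384) in nuclear RNA-rich barcodes and 0.490 (0.437 to 0.547) in the rest. Control barcodes had 0.202 (0.123 to 0.312) and 0.287 (0.268 to 0.308).

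**Figure D1:**
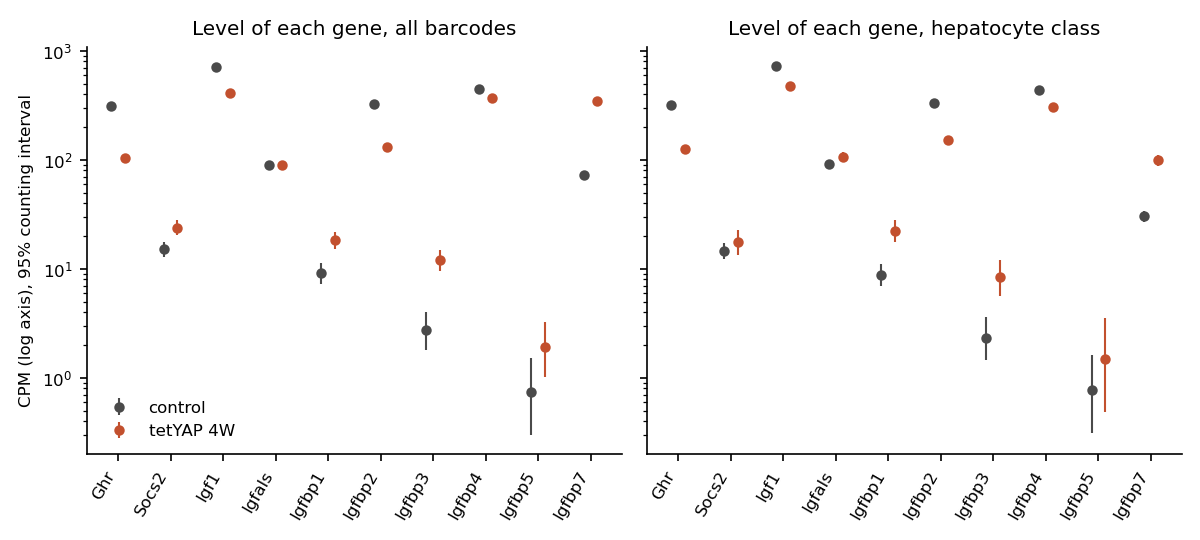
Level of each of the 10 genes in CPM on a log axis, in all barcodes (left) and in the hepatocyte class (right), for the control (grey) and tetYAP 4W (orange) library; bars are 95% counting intervals. In the hepatocyte class Ghr lies at 316 and 125 CPM and Igfbp7 at 30.5 and 99.2 CPM, in opposite order.

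The binding proteins Igfbp2 and Igfbp1, whose levels in liver respond to insulin and fasting, lay on opposite sides. Igfbp2 had 2961 UMIs in the control hepatocyte class, or 330 CPM (319 to 342), and 504 in the tetYAP 4W class, or 152 CPM (139 to 165), a log2 ratio of -1.12 (-1.26 to -0.99). Per 1000 hepatocyte marker UMIs the ratio was -0.70 (-0.83 to -0.56). Igfbp1 was at a low level and higher in the tetYAP 4W library, with 79 UMIs in the control class, or 8.81 CPM (6.98 to 11), and 74 in the tetYAP 4W class, or 22.3 CPM (17.5 to 27.9). Its log2 ratio was 1.34 (0.86 to 1.81), and 1.76 (1.29 to 2.24) per hepatocyte marker UMI. Unlike Ghr, Igfbp1 was at similar levels in tetYAP 4W barcodes rich in nuclear RNA (0.108 per barcode, 0.0604 to 0.178) and in the rest (0.0912, 0.0694 to 0.118). Igfbp3, the main binding protein of the plasma complex, had 21 and 28 UMIs, or 2.34 CPM (1.45 to 3.58) and 8.42 CPM (5.60 to 12.2), a log2 ratio of 1.85 (0.98 to 2.74), and 2.27 (1.41 to 3.16) per hepatocyte marker UMI. Stellate markers, whose class is richest in Igfbp3, also averaged more UMIs in the tetYAP 4W hepatocyte class (0.597 against 0.241), and their part in the Igfbp3 ratio was not tested. The tetYAP 4W level was above the control level for both genes of the Igfbp1 and Igfbp3 pair. For the Igfbp2 and Igfbp5 pair no such statement can be made, because Igfbp5 had 7 and 5 UMIs and a log2 ratio of 0.95 (-1.05 to 2.82), or 1.37 (-0.62 to 3.25) per hepatocyte marker UMI.

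Igfbp4, which binds IGF1 and is cut by the protease PAPP-A, had 3887 UMIs in the control hepatocyte class, or 434 CPM (420 to 447), and 1013 in the tetYAP 4W class, or 305 CPM (286 to 324). Its log2 ratio of -0.51 (-0.61 to -0.41) was -0.08 (-0.18 to 0.02) per hepatocyte marker UMI and 0.08 (-0.02 to 0.18) as a share of non-mitochondrial UMIs. Igfbp4 therefore had no direction that held on all scales. Igf1 differed from it in being lower per hepatocyte marker UMI as well as in CPM, with no difference as a share of non-mitochondrial UMIs. Igfbp7 had 273 UMIs in the control class, or 30.5 CPM (26.9 to 34.3), and 330 in the tetYAP 4W class, or 99.2 CPM (88.8 to 111). It was 3.26-fold higher in the tetYAP 4W library, with a log2 ratio of 1.70 (1.47 to 1.94), and 2.13 (1.90 to 2.37) per hepatocyte marker UMI. In the barcodes of the class with 0 endothelial marker UMIs, Igfbp7 was at 24.1 CPM (20.5 to 28.1) in 2161 control barcodes and at 74.1 CPM (61.4 to 88.7) in 371 tetYAP 4W barcodes, a log2 ratio of 1.62. Its level was highest where endothelial markers were, at 154 CPM (110 to 211) in the 74 control barcodes with 3 to 9 endothelial marker UMIs and 268 CPM (221 to 322) in the 113 such tetYAP 4W barcodes. In nuclear RNA-rich barcodes, by contrast, the ratio was smaller, at a log2 ratio of 0.73 from 14 and 39 UMIs.

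**Figure D2:**
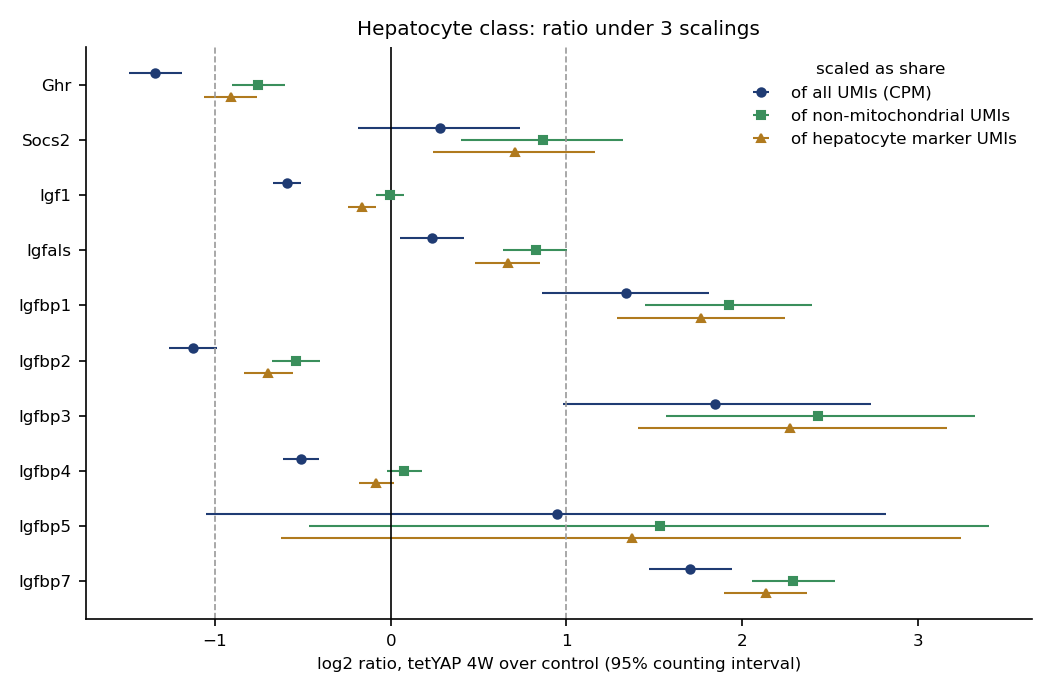
Log2 ratio of tetYAP 4W over control in the hepatocyte class for each gene, scaled by all UMIs (circles), by non-mitochondrial UMIs (squares) and by hepatocyte marker UMIs (triangles), with 95% counting intervals; dashed lines mark 2-fold. Ghr and Igfbp2 lie below 0 and Igfbp1, Igfbp3 and Igfbp7 above 0 under all 3 scalings, while Igf1 moves from -0.59 to -0.00.

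Counted together, 3 of the 10 genes (Igfbp1, Igfbp3 and Igfbp7) were at least 2-fold higher in CPM in the tetYAP 4W hepatocyte class, where 20.2% of the 11189 genes with at least 10 UMIs were. Ghr and Igfbp2 were the 2 that were at least 2-fold lower, where 13.2% of all genes were. The median log2 ratio of the 10 genes was 0.26 and that of all genes -0.05. Over all barcodes of a library, which mix the classes in their different proportions, 4 of the 10 genes were at least 2-fold higher (Igfbp1, Igfbp3, Igfbp5 and Igfbp7), against 38.3% of 12621 genes, and Ghr and Igfbp2 at least 2-fold lower, against 7.89%. There the medians were 0.33 for the 10 genes and 0.60 for all genes. The counts of higher genes are close to these backgrounds and are read only as a description. Per hepatocyte marker UMI neither Ghr nor Igfbp2 passed 2-fold in the hepatocyte class, and the count of lower genes was 0. On that scale the median log2 ratio of all genes was 0.37, and the share of all genes past 2-fold was not counted.

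Ghr, Igf1, Igfals and Igfbp2 were found in every class with at least 20 barcodes. In the tetYAP 4W library, 194 barcodes of the T or NK, B and erythroid classes, which should not make hepatocyte proteins, had a median of 4400 UMIs against 3998 in the hepatocyte class. They carried 0.371 Ghr UMIs per barcode (0.290 to 0.467) against 0.529 (0.480 to 0.583) in the hepatocyte class. For Igfbp2 the values were 0.603 (0.499 to 0.723) and 0.641 (0.586 to 0.70), and for Igfals 0.381 (0.300 to 0.479) and 0.453 (0.407 to 0.503). Igf1 stood at 1.51 (1.34 to 1.69) and 2.03 (1.94 to 2.14). For Igfbp2 and Igfals the intervals overlap, and for Ghr and Igf1 the hepatocyte class was higher by less than 1.5-fold. A Ghr UMI was found in 31.4% of these reference barcodes and in 38.8% of the hepatocyte class, an Igf1 UMI in 75.8% and 83.1%, and an Igfbp1 UMI in 6.70% and 8.40%. The widest gaps below the hepatocyte class were in tetYAP 4W macrophage barcodes, where Ghr was at 0.280 per barcode, a log2 ratio of -0.92 (-1.28 to -0.57), and Igfals at 0.248, a log2 ratio of -0.87 (-1.26 to -0.49). In control macrophage barcodes Igfbp2 was at 0.567 against 1.03, a log2 ratio of -0.87 (-1.65 to -0.19). Levels of these genes in the hepatocyte class are therefore read as RNA in the barcode, since barcodes of cells that should lack them also held them.

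Macrophages, a known source of IGF1 outside hepatocytes, carried 506 Igf1 UMIs in 282 tetYAP 4W barcodes, or 1.79 per barcode (1.64 to 1.96). Per barcode this was below the hepatocyte class, with a log2 ratio of -0.18 (-0.33 to -0.04). Per 1000 hepatocyte marker UMIs it was above it, at 6.83 (6.25 to 7.45) and 5.20 (4.95 to 5.46), a log2 ratio of 0.39 (0.25 to 0.54). On the same scale Ghr and Igfals were at -0.34 (-0.71 to 0.01) and -0.29 (-0.68 to 0.08) in these macrophage barcodes, and Igfbp4 at 0.56 (0.38 to 0.74). The 30 control macrophage barcodes had 9.92 Igf1 UMIs per 1000 hepatocyte marker UMIs (7.91 to 12.3), a log2 ratio of 0.77 (0.44 to 1.08), and Ghr was also above the hepatocyte class there, at 0.89 (0.40 to 1.34). In the tetYAP 4W library the 215 macrophage barcodes with at least 10 UMIs of the Kupffer cell genes Clec4f, Cd5l, Vsig4, Timd4 and Marco had 1.79 Igf1 UMIs (1.61 to 1.97), and the 67 with fewer had 1.82 (1.51 to 2.17).

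**Figure D3:**
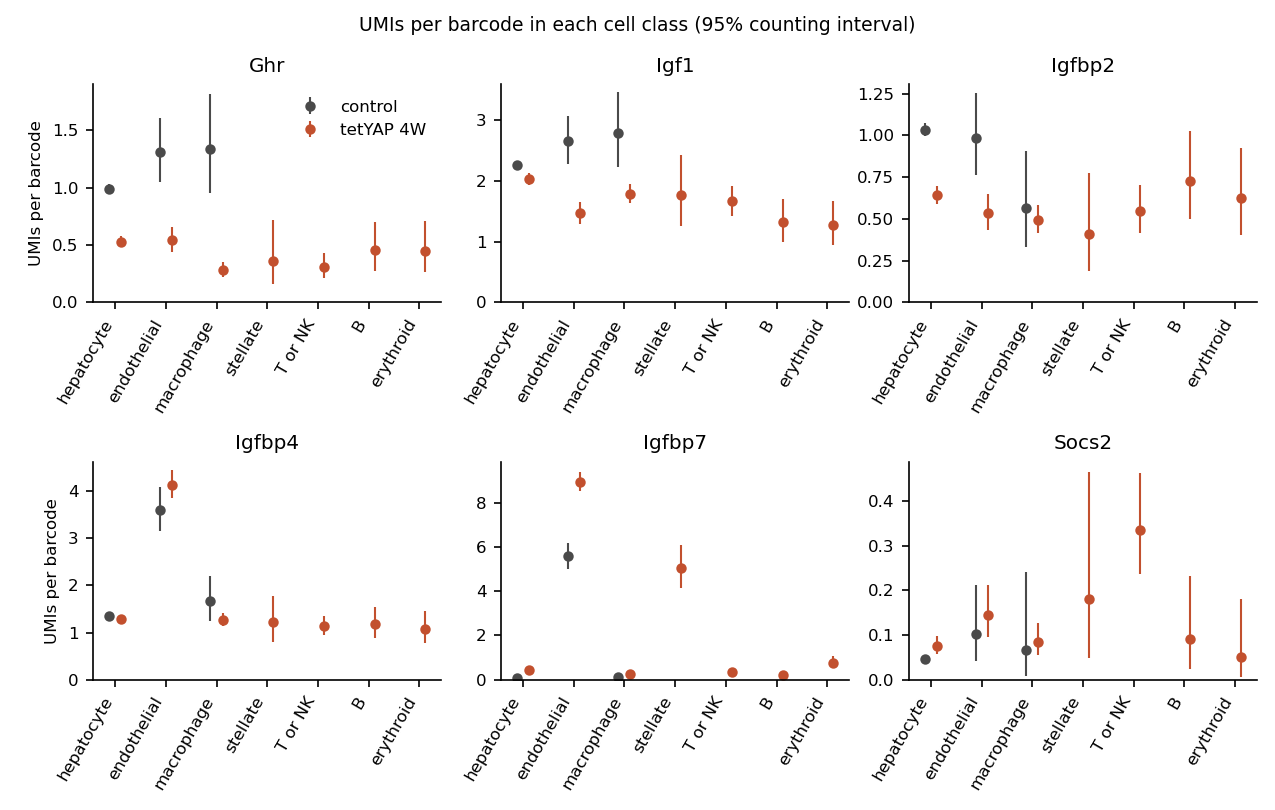
UMIs per barcode of 6 genes in each cell class with at least 20 barcodes, for the control (grey) and tetYAP 4W (orange) library, with 95% counting intervals; each panel has its own axis from 0. Ghr, Igf1 and Igfbp2 are present in every class, Igfbp4 stands highest in the endothelial class, Igfbp7 in the endothelial and stellate classes, and Socs2 in the T or NK class.

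Among the classes with at least 20 barcodes, Igfbp7 and Igfbp4 stood highest per barcode in the endothelial class. Igfbp7, which vessels secrete into their matrix, had 8.95 UMIs per endothelial barcode in the tetYAP 4W library (8.53 to 9.39) against 0.420 (0.376 to 0.468) in the hepatocyte class. In the control the values were 5.57 (5.03 to 6.16) and 0.0953 (0.0843 to 0.107). The endothelial class held 186 tetYAP 4W and 68 control barcodes, which is 12.2% and 2.28% of a library, and 71.2% and 55.2% of its Igfbp7 UMIs. In single barcodes the ranges overlapped, but 94.6% of tetYAP 4W endothelial barcodes had an Igfbp7 UMI, with up to 26, and 29.8% of the hepatocyte class, with up to 6. In T or NK, B and erythroid barcodes the share was 21.6% (16.1 to 28.1) and the level 0.392 UMIs per barcode (0.309 to 0.490), an interval that overlaps that of the hepatocyte class. Of these 76 UMIs, 22 came from 1 erythroid barcode. Thinned to 2000 UMIs the shares in endothelial, hepatocyte-class and these other barcodes were 86.0%, 17.8% (15.2 to 20.7) and 9.28% (5.59 to 14.3), and thinned to 1000 UMIs they were 70.4%, 9.92% (7.92 to 12.2) and 7.73% (4.39 to 12.4). The intervals of the hepatocyte class and these other barcodes thus overlapped per barcode and at 1000 UMIs and did not at 2000 UMIs. Igfbp4 had 4.14 UMIs per endothelial barcode (3.85 to 4.44) against 1.29 (1.21 to 1.37) in the tetYAP 4W library, and 3.6 (3.17 to 4.08) against 1.36 (1.31 to 1.40) in the control. Thinned to 2000 UMIs, the tetYAP 4W shares with an Igfbp4 UMI were 76.3% (69.6 to 82.3) and 43.8% (40.3 to 47.3). The control shares were 69.1% (56.7 to 79.8) and 58.1% (56.2 to 59.9), with intervals that overlap. In CPM Igfbp4 was at 801 and 305 in tetYAP 4W and at 785 and 434 in the control, where the gap was less than 2-fold. In the control, 4 of the 9 genes that could be counted (Socs2, Igfbp1, Igfbp4 and Igfbp7) were at least 2-fold higher per barcode in the endothelial class, where 40.8% of all genes were, but Socs2 and Igfbp1 rested on 7 and 4 UMIs. In the tetYAP 4W library, Igfbp4 and Igfbp7 were the 2 of 9, against 62.6% of all genes.

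Between the libraries, Igfbp7 in the endothelial class was higher in the tetYAP 4W library by a log2 ratio of CPM of 0.51 (0.35 to 0.68), from 1214 to 1732 CPM. These barcodes carried a median of 33.5 (control) and 51.5 (tetYAP 4W) endothelial marker UMIs, and per endothelial marker UMI the log2 ratio of Igfbp7 was 0.19 (0.02 to 0.35). Igfbp4 was at 785 and 801 CPM, a log2 ratio of 0.03 (-0.18 to 0.24). The difference in Igfbp7 over all barcodes, with a log2 ratio of 2.26 (2.13 to 2.38), was thus far larger than within the class that holds most of its UMIs. Ghr, Igf1 and Igfbp2 were also lower in tetYAP 4W endothelial barcodes, with log2 ratios of CPM of -1.44 (-1.87 to -1.01), -1.03 (-1.31 to -0.75) and -1.06 (-1.52 to -0.59). For Ghr and Igfbp2 the interval overlaps that of the hepatocyte class, and for Igf1 it lies below it. They were the 3 of 9 genes at least 2-fold lower there, against 7.85% of 8638 genes, and 0 of 9 were at least 2-fold higher, against 12.1%. The median of hepatocyte marker UMIs in endothelial barcodes was 401.5 (control) and 295.5 (tetYAP 4W). Per 1000 such UMIs, Ghr was at 3.23 and 1.78, Igf1 at 6.57 and 4.82 and Igfbp2 at 2.43 and 1.75. On this scale all 3 were lower by less than 2-fold, and the Igfbp2 intervals overlap (1.88 to 3.09 and 1.42 to 2.13). The part of shared hepatocyte RNA was not tested.

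In tetYAP 4W endothelial barcodes, Igfbp7, Igfbp4 and Socs2 were higher where endothelial markers were higher. The 93 barcodes at or above the median of marker UMIs had 13.7 Igfbp7 UMIs (13.0 to 14.5) and the 93 below it 4.17 (3.77 to 4.61), at a median depth of 6195 and 3890 UMIs. Igfbp4 had 5.51 (5.04 to 6.00) and 2.77 (2.45 to 3.13), and Socs2 had 0.258 (0.165 to 0.384) and 0.0323 (0.00665 to 0.0943). In CPM, which takes the depth into account, Igfbp7 was at 2227 and 1000, Igfbp4 at 893 and 665, and Ghr in the opposite order at 85.5 and 134. Control endothelial barcodes split in the same way had 1320 and 1092 CPM of Igfbp7, a smaller gap.

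**Figure D4:**
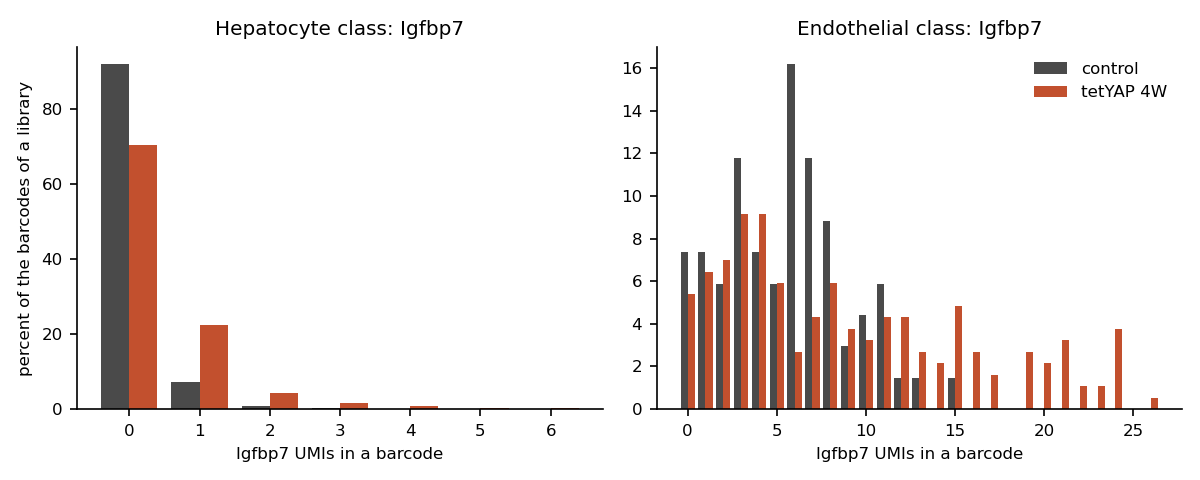
Percent of the barcodes of a library (bars from 0) that hold each number of Igfbp7 UMIs, in the hepatocyte class (left) and the endothelial class (right), for the control (grey) and tetYAP 4W (orange) library. In the hepatocyte class 91.8% of control and 70.2% of tetYAP 4W barcodes have 0, and endothelial barcodes reach 15 and 26 UMIs.

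Outside the endothelium, Igfbp3 and Igfbp7 were high in the 22 stellate or mesenchymal barcodes of the tetYAP 4W library. Stellate cells are the vitamin A-storing cells of the sinusoid wall. Igfbp3 had 21 UMIs there, or 0.955 per barcode (0.591 to 1.46), against 0.0356 (0.0237 to 0.0515) in the hepatocyte class, and these 22 barcodes held 25.9% of the library's Igfbp3 UMIs. Igfbp7 had 111 UMIs, or 5.05 per barcode (4.15 to 6.08). With Socs2, at 4 UMIs, they were the 3 of 9 genes at least 2-fold higher in this class, against 8.51% of all genes. The control library had 7 stellate barcodes, too few for a level to be given.

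Socs2 was highest in T or NK barcodes. It had 37 UMIs in the 110 tetYAP 4W barcodes of that class, or 0.336 per barcode (0.237 to 0.464), against 0.0751 (0.0571 to 0.0968) in the hepatocyte class, a log2 ratio of 2.16 (1.53 to 2.78). This class was 7.22% of the barcodes and held 22.8% of the library's Socs2 UMIs, and Socs2 was the 1 of 9 genes at least 2-fold higher in it, against 46.6% of all genes. In 65 barcodes with at least 2 UMIs of Cd3d, Cd3e, Cd3g and Trac, subunits of the T cell receptor complex, and 0 of the NK cell receptors Ncr1 and Klrb1c, Socs2 had 25 UMIs, or 0.385 per barcode (0.249 to 0.568). In 18 barcodes with at least 2 UMIs of these NK cell receptors and fewer than 2 T cell UMIs it had 0 UMIs, with an upper bound of 0.205 per barcode. A Socs2 UMI was found in 20.9% of T or NK barcodes and 6.62% of the hepatocyte class, and in 15.5% and 3.44% after thinning to 2000 UMIs. No member was at least 2-fold higher in the tetYAP 4W macrophage, B or erythroid class, where 45.0%, 23.2% and 2.50% of all genes were. Igfbp7 was the 1 of 9 genes at least 2-fold lower in the B cell class, against 1.25% of all genes, at 9 UMIs in 44 barcodes and a log2 ratio of -1.04 (-2.18 to -0.10).

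Around the 10 genes, other parts of the pathway differed unevenly between the libraries in the hepatocyte class. Of 15 genes of growth hormone receptor signalling, 14 could be counted, of which 5 were at least 2-fold higher and 2 at least 2-fold lower in the tetYAP 4W library, with a median log2 ratio of 0.33. Of all genes in this class 20.2% were at least 2-fold higher and 13.2% at least 2-fold lower, with a median of -0.05. The feedback inhibitor Socs3 had 8 and 34 UMIs, with a log2 ratio of 3.52 (2.38 to 4.84). Cux2, a transcription factor of female liver, had 0 and 30 UMIs, 27.0-fold higher in CPM when the control is set at 3 UMIs. The lower limit of its log2 ratio was 4.36. Cish, a STAT5 target like Socs2, was lower at 124 and 22 UMIs with -1.06 (-1.79 to -0.40), and the repressor Bcl6 at 131 and 17 UMIs with -1.52 (-2.34 to -0.78). Of 14 genes of IGF and insulin receptor signalling 2 were at least 2-fold higher and 0 lower (20.2% and 13.2% of all genes), with a median of 0.10. These were the receptors Igf1r, with 8 and 11 UMIs and a log2 ratio of 1.89 (0.44 to 3.41), and Igf2r, which takes up IGF2, with 68 and 85 UMIs and 1.75 (1.28 to 2.23). The lowest of the list were the transcription factor Foxo1 at -0.36 (-0.98 to 0.23) and the adaptor Shc1 at -0.28 (-0.77 to 0.18), with intervals that hold 0. Of 10 other ligands, binding proteins and proteases of the IGF system, 0 reached 10 UMIs.

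The fasting and stress genes that share inputs with Igfbp1 showed no common direction. Of 8 genes of the fasting and FOXO list 0 were at least 2-fold higher and 3 at least 2-fold lower (20.2% and 13.2% of all genes), with a median of -0.18. The gluconeogenic enzyme G6pc was at 1374 and 157 UMIs with a log2 ratio of -1.70 (-1.95 to -1.46) and the kinase Pdk4 at 21 and 2 UMIs with an interval of -5.10 to 0.07. At the upper end, Sesn1 had 0.85 (-0.24 to 1.89) and Ppargc1a 0.65 (-0.28 to 1.53). Of 9 genes of the integrated stress response, 8 could be counted, 2 were at least 2-fold higher and 1 lower (20.2% and 13.2% of all genes), with a median of -0.06. Atf3, an early stress-induced factor, had 7 and 31 UMIs and 3.58 (2.37 to 5.01). Vldlr had 0 and 10 UMIs, 8.99-fold higher in CPM against a floor of 3 UMIs, with a lower log2 limit of 2.60. Atf4 was at -0.97 (-1.26 to -0.70), and the hormone Fgf21 had 22 and 2 UMIs with an interval of -5.16 to -0.00.

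Genes whose sex bias in liver depends on growth hormone showed the widest differences. These lists, like the others, were chosen with earlier results of these data known. All 14 male-biased genes were at least 2-fold lower in the tetYAP 4W hepatocyte class (13.2% of all genes were), with a median log2 ratio of -5.11. The fatty acid elongase Elovl3 had 3405 and 4 UMIs, a log2 ratio of -8.30 (-10.18 to -6.94), and Cyp4a12a 1784 and 2 UMIs, with an interval of -11.42 to -6.52. At the other end, the organic anion transporter Slco1a1 was at -1.82 (-1.96 to -1.69) and Mup3 at -3.51 (-3.54 to -3.47), the latter uncertain because major urinary protein genes share near-identical sequence. Of 16 female-biased genes, 14 could be counted and all 14 were at least 2-fold higher (20.2% of all genes were), with a median of 7.67. A1bg had 3 and 1243 UMIs, a log2 ratio of 10.13 (8.57 to 12.41), and the sulfotransferase Sult2a2 4 and 672 UMIs, with 8.82 (7.46 to 10.70). The smallest were Cyp17a1, with 14 and 61 UMIs and 3.55 (2.70 to 4.51), and Cyp3a16, with 0 and 10 UMIs. Cyp3a16 was 8.99-fold higher in CPM against a floor of 3 UMIs, with a lower log2 limit of 2.60. The animals differ in sex by their Xist and Y-linked transcripts, so for these genes, as for Ghr, Igf1 and their partners, the sex and the genotype cannot be told apart.

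**Figure D5:**
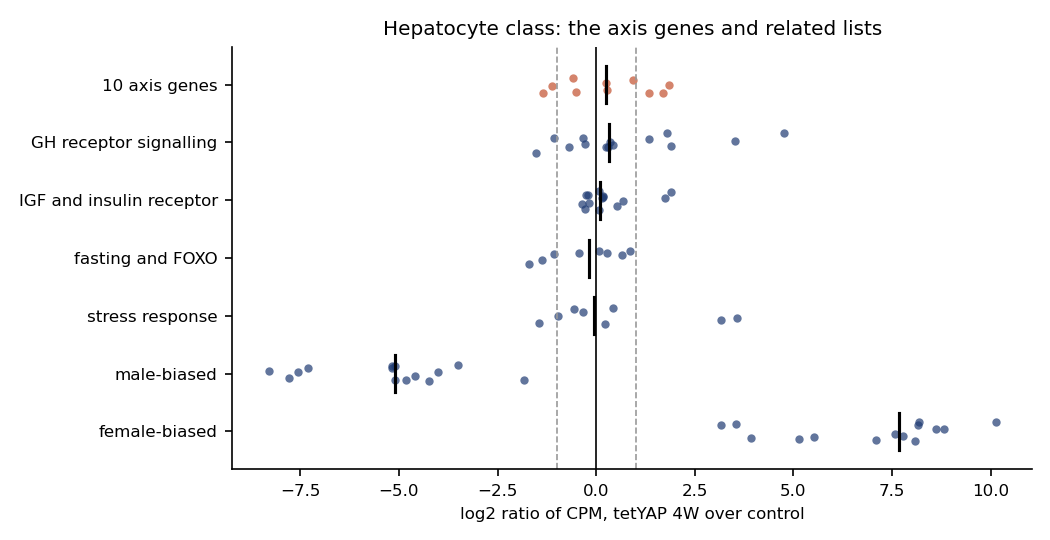
Log2 ratio of CPM, tetYAP 4W over control, in the hepatocyte class for the 10 axis genes (orange) and for the genes of each related list with at least 10 UMIs (blue); black ticks are medians, dashed lines mark 2-fold and the vertical scatter has no meaning. The 10 genes lie between -1.34 and 1.85, the male-biased genes have a median of -5.11 and the female-biased genes of 7.67.

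Likeness of pattern was measured as Pearson's r of log2(CPM + 10) over the 10 pairs of class and library with at least 20 barcodes, among 7828 genes with at least 100 UMIs. The pairs share 2 libraries and, as shown above, hepatocyte RNA, so r is a description. The genes most like Igf1 were the gluconeogenic enzymes G6pc (r = 0.959) and Pck1 (r = 0.959) and Hibadh (r = 0.953), an enzyme of valine breakdown. Most like Igfbp2 were Stard10 (r = 0.953), Rida (r = 0.95) and Glyat (r = 0.948), which conjugates glycine to acids in mitochondria. Most like Igfbp7 were Col4a1 (r = 0.978), a collagen chain of basement membrane, Prex2 (r = 0.975) and Bace2 (r = 0.974).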

How the data were processed

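Droplet-based single-cell RNA-seq (10x Chromium) libraries of perfused mouse liver were analysed from raw counts. The authors deposited raw, whole counts of unique molecular identifiers (UMIs) for each gene in each barcode. Per the labels and the study's methods, reads were processed with Cell Ranger at default settings on mm10. The barcodes of each condition were then down-sampled to the same number and barcodes above a UMI limit removed. The 2989 control barcodes left reached at most 7277 UMIs and the 1524 tetYAP 4W barcodes at most 7493. How many barcodes each step removed from each library is not stated. From equal starting numbers, the limit would have removed more tetYAP 4W than control barcodes. The part of these steps in the ratios was not tested. The labels also name Seurat 3. The methods name 3' v3 libraries for perfused liver, while the labels of both samples name v2 and v3 kits. The gene annotation is not given in the sources used here. The table held 31053 genes and 4513 barcodes.

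UMIs were summed over barcodes and scaled to CPM by the total of the same barcodes. A ratio is the log2 of the tetYAP 4W level divided by the control level, counts under 3 being raised to 3, and carries exact conditional binomial 95% intervals. Levels carry exact Poisson intervals and shares Clopper-Pearson intervals. Genes with at least 10 UMIs over both sets compared were counted, and called at 2-fold. A class with 3 or fewer UMIs of a gene was never called higher in it. The class rule was set with the data in view. In the hepatocyte class, 41 control and 159 tetYAP 4W barcodes had 6 to 9 UMIs of another class, and 35 and 178 other barcodes had 10 to 19. No doublet caller was used, and 3 control and 29 tetYAP 4W barcodes with markers of several classes were set aside as mixed.

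The members and lists were chosen with earlier results of these data known. Named genes were the 10 members, of each list the 2 with the highest and the 2 with the lowest ratio in the hepatocyte class, and the 3 most like Igf1, Igfbp2 and Igfbp7. Coordinates and promoter windows are from RefSeq on GRCm38.p6, the build of mm10. Functions were tested on simulated counts. Python 3.11.15, numpy 2.4.6, scipy 1.17.1 and pandas 2.3.3 were used. Alternatives were other barcode limits, totals, weights, depths, floors, minimum counts and class minimums. Scaling to hepatocyte markers or without mitochondrial genes and the barcodes without endothelial UMIs or rich in nuclear RNA were chosen after seeing the data.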

Additional observations from a re-analysis of the deposited data

How the results depend on the processing

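No alternative put a member at least 2-fold on the other side. In the hepatocyte class Ghr lay between -1.39 and -0.67 and Igfbp2 between -1.19 and -0.54 over the alternatives run, Igfbp1 between 0.84 and 1.92, Igfbp7 between 0.73 and 2.29, Socs2 between 0.19 and 1.48 and Igf1 between -0.63 and -0.00. Igfbp2 lay below Ghr without barcodes above 30% mitochondrial UMIs (-0.72 and -0.67) and in nuclear RNA-rich barcodes (-1.10 and -0.82). Igfals and Igfbp4 changed sign there, at -0.03 without barcodes above 30% mitochondrial UMIs and at 0.08 with mitochondrial genes taken out of the totals, and in all barcodes Igfals and Igfbp4 did, at 0.65 and 0.38 when scaled to hepatocyte markers. The count of members at least 2-fold lower in the hepatocyte class went from 2 to 0 without barcodes above 30% mitochondrial UMIs (which kept 1757 control and 129 tetYAP 4W barcodes), with mitochondrial genes, or these and the 50 genes of highest abundance, taken out of the totals, and with scaling to hepatocyte markers, and to 1 in barcodes with at least 0.2% Malat1 and Neat1 UMIs, where the count of higher members went from 3 to 1. These alternatives moved the median of all genes from -0.05 to 0.97, 0.53, 0.42, 0.37 and 0.25. In all barcodes the count of higher members went from 4 to 2 when ratios were centred on the all-gene median, and that of lower ones from 2 to 0 when scaled to hepatocyte markers. The count of members higher in control endothelial barcodes went from 4 to 2 at a class minimum of 20 marker UMIs. The cause was not tested. The other 39 counts stayed within 1.5 times their value, and of the single-gene values 186 moved by less than their counting interval and 103 by more. No paired analysis was possible because each group has 1 library. Depth limits Igfbp5, Igfbp3 and Igfbp1 most, and leaving out a library was not possible.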
